A study of Rattus norvegicus with 6 samples.

Results

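The transforming growth factor beta (TGF-beta) system of the pituitary gland was followed through 10 genes. They are the ligands Tgfb1, Tgfb2 and Tgfb3, the receptors Tgfbr1, Tgfbr2 and Tgfbr3, and the intracellular mediators Smad2, Smad3, Smad4 and Smad7. The genes were picked by their symbols and not by a cutoff on measured values, though earlier results of these data were known. All 10 were found among the 33294 symbols of the count tables. The libraries came from male Sprague-Dawley rats aged 11 weeks, with the pituitary gland of 1 rat in each. The dams of 3 rats had carried a 28-day mini-pump that delivered nicotine tartrate at 6 mg/kg per day, and the dams of the other 3 a pump with saline, and these groups are called nicotine and control. The labels do not say which rats shared a dam or whether treated dams nursed the pups, and they place birth before the end of the pump's stated life. P-values therefore measure the spread between rats, and litters cannot be told apart from exposure.

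TGF-beta ligands are made as latent dimers that are held in the extracellular matrix until they are released. A released ligand binds the type II receptor, which recruits and phosphorylates the type I receptor, and the type III receptor betaglycan presents ligand to them. The active complex phosphorylates Smad2 and Smad3, which join Smad4 and enter the nucleus, and Smad7, itself induced by the pathway, blocks the receptors. In the anterior pituitary TGF-beta1 is known for restraining lactotrophs and their prolactin, and outside the endocrine cells the pathway is known for matrix production by fibroblasts and vessel wall cells. The study looked at Tgfb1 in its testis methylation data and at genes tied to Tgfb1 signaling in the pituitary. The question for the present genes is whether the components of the pathway themselves differed in level between the groups.

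The promoters of the ligands and of both signalling receptors are shown because Tgfb2 and Tgfb3, and Tgfbr1 and Tgfbr2, are the pairs whose levels are set side by side below. Each line gives the 250 bases before the annotated start, 5′ to 3′ on the strand of the gene, from RefSeq on build GRCr8, which is newer than the rn7 build behind the counts. Capitals mark the E-box CACGTG and the GC box GGGCGG, searched on both strands.
Tgfb1, GRCr8 chr1:90324062-90324311, plus strand: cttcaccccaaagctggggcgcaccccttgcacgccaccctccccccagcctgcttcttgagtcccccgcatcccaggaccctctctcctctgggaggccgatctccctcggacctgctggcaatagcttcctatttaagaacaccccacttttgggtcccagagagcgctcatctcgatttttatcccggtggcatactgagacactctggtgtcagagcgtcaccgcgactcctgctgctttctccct
Tgfb2, GRCr8 chr13:100792686-100792935, minus strand: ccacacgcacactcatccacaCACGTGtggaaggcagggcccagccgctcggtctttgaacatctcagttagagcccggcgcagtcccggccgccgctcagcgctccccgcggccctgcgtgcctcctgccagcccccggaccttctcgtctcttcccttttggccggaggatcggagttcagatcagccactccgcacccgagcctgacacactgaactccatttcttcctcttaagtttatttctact
Tgfb3, GRCr8 chr6:111456947-111457196, minus strand: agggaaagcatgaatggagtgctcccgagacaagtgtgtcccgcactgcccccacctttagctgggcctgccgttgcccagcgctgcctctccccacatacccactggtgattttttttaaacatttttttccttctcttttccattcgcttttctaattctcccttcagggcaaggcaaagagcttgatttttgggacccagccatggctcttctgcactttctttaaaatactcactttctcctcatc
Tgfbr1, GRCr8 chr5:66449148-66449397, plus strand: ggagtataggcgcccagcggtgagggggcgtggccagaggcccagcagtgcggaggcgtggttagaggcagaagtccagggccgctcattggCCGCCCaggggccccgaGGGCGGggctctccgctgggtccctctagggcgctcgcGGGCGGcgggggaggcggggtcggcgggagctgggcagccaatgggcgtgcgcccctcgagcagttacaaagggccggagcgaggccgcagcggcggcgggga
Tgfbr2, GRCr8 chr8:124761470-124761719, minus strand: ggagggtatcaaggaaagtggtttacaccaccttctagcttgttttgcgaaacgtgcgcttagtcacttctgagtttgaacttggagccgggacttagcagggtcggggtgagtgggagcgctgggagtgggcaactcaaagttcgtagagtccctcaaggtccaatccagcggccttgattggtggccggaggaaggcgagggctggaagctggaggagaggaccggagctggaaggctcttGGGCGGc

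Windows were available for all 10 genes, with 11 windows in total because Smad2 has a pair of starts. The GC box was found in 7 of the 11 windows, against 30.5% of 33465 rat promoter windows of the same length, and none of the 3 ligand windows held it. The windows that held it were those of Tgfbr1, Tgfbr2, Tgfbr3, Smad3, Smad7 and both starts of Smad2. The Smad2 windows overlap, and the box 10 bases before the first start is the same site as the one 245 bases before the second. The E-box stood only in the Tgfb2 window, 229 bases before the start, and 5.59% of all windows held one. The Smad binding palindrome GTCTAGAC was in none of the 11 windows and in 0.173% of all windows, and CAGACA was in none of them and in 17.2% of all windows. The AP-1 site TGAGTCA and the cyclic AMP response element TGACGTCA, in 4.05% and 1.59% of all windows, were also in none of the 11. TATAAA, also searched on both strands, was in 12.9% of all windows. Of the 11 it stood only before Smad4, 148 bases from the start and on the strand opposite to the gene. The windows differed in CpG dinucleotides, the sites of DNA methylation, from 1 before Smad4 and 5 before Tgfb3 to 44 and 46 before Smad2, where the median of all windows was 5. The Tgfb1 window held 11 and the Tgfb2 window 19. The Tgfbr1 window held 27, more than 92.3% of all windows. DNA methylation was not analysed here, and a match to these letters is a description of the sequence.

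Library totals ranged from 28318383 to 85977002 counts, and the median total of the nicotine group was 1.70 times that of the control group. The read numbers that the supplement of the study lists by library name do not follow the totals of the tables deposited under those names. The list of either group runs in proportion to the totals of the opposite group, and all 3 nicotine tables hold more counts than the reads listed for their names. Which of them is right was not tested, and each direction given here is that of the deposited labels. The RNA protocol in the labels describes testis, so the tissue was checked with marker genes. The 7 pituitary hormone genes summed to between 113538 and 176311 CPM (counts scaled to a common library size), led by Gh1, growth hormone, at a mean of 74887 CPM. The 7 testis germ cell genes summed to 0.0496 to 0.149 CPM, with 2 of them at 0 in every library and Dazl, the most abundant, at a mean of 0.0341 CPM. Levels are CPM after TMM scaling, a scaling of library sizes, and are not divided by transcript length, so each of the 10 genes is compared between libraries and not with another gene. The leading gene named for a marker list is the one with the most counts, which also depends on its length. Nicotine replicate 2 stood apart from the other libraries over all genes, at a mean distance of 90.8 against 72.0 to 80.7. Over the 10 genes alone this was not so, with 1.24 for that library and 0.874 to 1.35 for the others.

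No difference between the groups was detected for any of the 10 genes. With 3 rats in a group this does not show that their levels were equal. All 10 passed the filter on low counts and were tested with edgeR's quasi-likelihood test over 17292 genes, with Benjamini-Hochberg adjustment, and a call needed both a fold change above 1.5 and an adjusted p below 0.1. edgeR called 0 of the 10, and 0 had an unadjusted p under 0.05. Over all genes edgeR called 0 as well (0%), with 1011 at an unadjusted p under 0.05 (5.85%, of which 3.12% higher and 2.73% lower after nicotine). None of the 10 reached a fold change of 1.5, which 9.59% of all genes did. DESeq2 called 0 of the 10 and 62 genes in all, 0.347% of those it gave an adjusted p. The groups overlapped for each of the 10 genes, where the groups did not overlap for 11.3% of all genes tested (6.12% with nicotine above and 5.14% below). The adjusted p from edgeR lay between 0.839 and 0.964 for the 10 genes. Their median log2 fold change was 0.13, with 7 higher and 3 lower in the nicotine group, beside a median of 0.01 over all genes, of which 51.2% were higher.

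**Figure D1:**
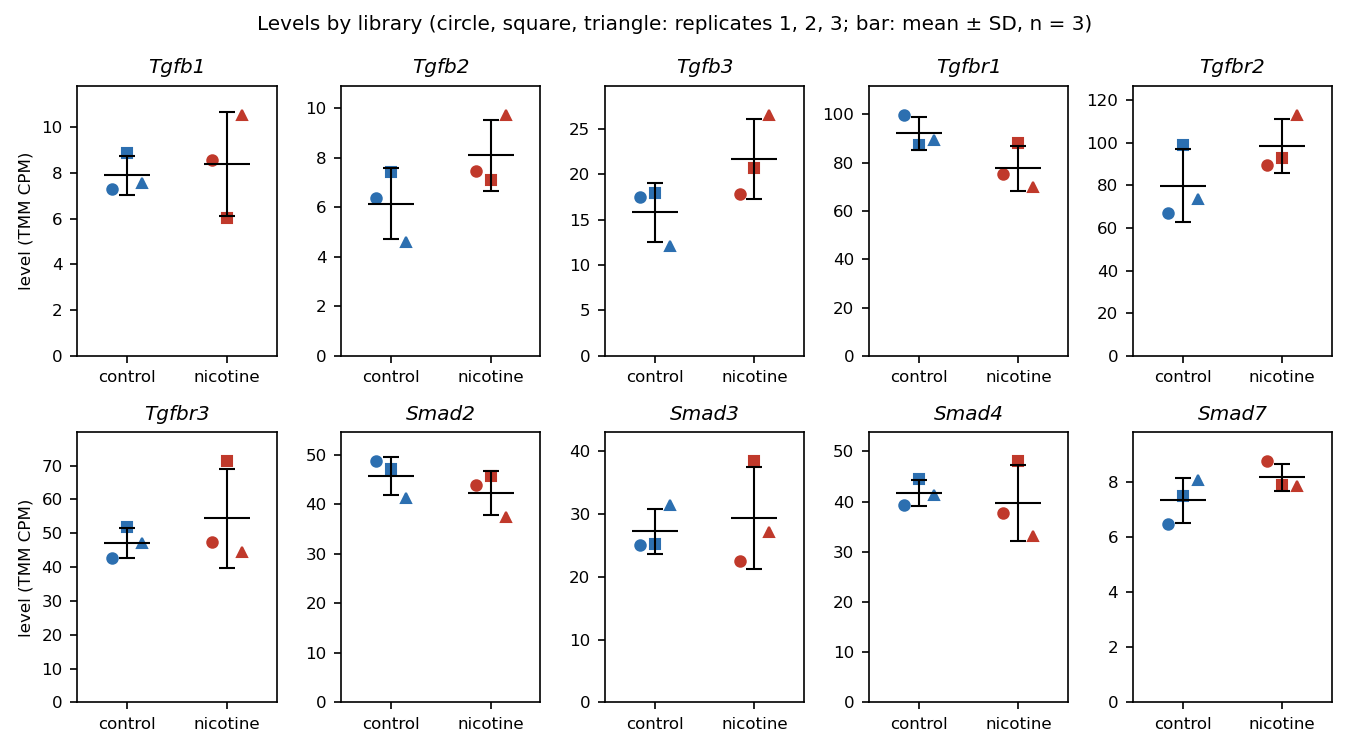
Level of each gene in each library in CPM after TMM scaling (vertical axis, from 0), for the control libraries (blue) and the nicotine libraries (red). Circles, squares and triangles are replicates 1, 2 and 3, and bars are the mean and SD of 3 rats. In every panel the ranges of both groups overlap, as for Tgfb1 with nicotine libraries at 6.01 to 10.5 CPM around controls at 7.27 to 8.87 CPM.

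Tgfb1, the ligand at the centre of the study's interest, was at 8.57, 6.01 and 10.5 CPM in nicotine replicates 1, 2 and 3 and at 7.27, 8.87 and 7.55 CPM in control replicates 1, 2 and 3. Both the lowest and the highest library belonged to the nicotine group, and the controls lay between them. For Tgfb1 the log2 fold change was 0.08, with a 95% interval from -0.44 to 0.60 (adjusted p = 0.964 from edgeR). Expressed as folds, this interval runs from 0.738 to 1.51, so the data leave room for a lower level as well as for one about as high as the threshold for a call. The estimate turned to -0.12 without nicotine replicate 3. The counts behind it were 197 to 637 per library, for which counting error alone is at most 7.12% of the value, while the SD between rats was 27.0% of the mean in the nicotine group and 10.8% in controls.

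Tgfb2 encodes the isoform that depends on betaglycan for strong binding to the type II receptor. It had nicotine levels of 7.47, 7.09 and 9.73 CPM and control levels of 6.39, 7.43 and 4.60 CPM. Control replicate 3 was lowest and nicotine replicate 3 highest, and the other libraries lay close together across the groups. The means were 8.10 ± 1.43 CPM (SD, n = 3) in the nicotine group and 6.14 ± 1.43 CPM (SD, n = 3) in controls. This gave a log2 fold change of 0.40 (95% interval -0.13 to 0.92, adjusted p = 0.849 from edgeR). It was 0.23 without control replicate 3, 0.24 without nicotine replicate 3 and 0.56 without control replicate 2.

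Tgfb3, the ligand known for palate fusion and, in the pituitary, for acting on lactotrophs through folliculostellate cells, had the largest difference among the 10 genes. Its levels were 17.8, 20.7 and 26.5 CPM in the nicotine libraries and 17.4, 17.9 and 12.0 CPM in the control libraries. The overlap was narrow, since only nicotine replicate 1 lay below control replicate 2. The means were 21.7 ± 4.43 CPM (SD, n = 3) and 15.8 ± 3.24 CPM (SD, n = 3), and the log2 fold change was 0.46 (standard error 0.21, 95% interval -0.01 to 0.92). The unadjusted p was 0.0536 and the adjusted p 0.839 in edgeR, and the exact two-sided permutation test gave p = 0.2, where 3 libraries against 3 cannot give less than 0.1. Its log2 fold change stayed positive without each library in turn, from 0.29 without nicotine replicate 3 to 0.58 without nicotine replicate 1. Its unadjusted p fell under 0.05 without nicotine replicate 1, without control replicate 2, with no filter and with library sizes alone, but the adjusted p from edgeR was at least 0.581 in each of these.

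The ligands were also compared within a library, as shares of their summed counts, which do not depend on library size or scaling. These shares are weighted by transcript length and serve only to compare libraries. Tgfb1 held 25.3%, 17.8% and 22.5% of the ligand counts in nicotine replicates 1, 2 and 3 and 23.4%, 26.0% and 31.2% in control replicates 1, 2 and 3. The exact 95% binomial intervals, which cover counting error only, were 16.5% to 19.2% for nicotine replicate 2 and 28.2% to 34.3% for control replicate 3, so the libraries at the ends of this range differed by more than counting error. The mean share was 21.9% ± 3.81 (SD, n = 3) in the nicotine group and 26.9% ± 3.99 (SD, n = 3) in controls, with overlapping groups. The difference of -4.98 percentage points had p = 0.2 in the exact two-sided permutation test, and 0.333 after adjustment over the 5 within-library measures. Tgfb2 kept a nearly even share, at 20.8% to 22.1% in the nicotine libraries and 19.0% to 21.7% in controls. Tgfb3 took 56.8% ± 4.32 (SD, n = 3) and 52.7% ± 3.16 (SD, n = 3), with an exact permutation p of 0.2.

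**Figure D2:**
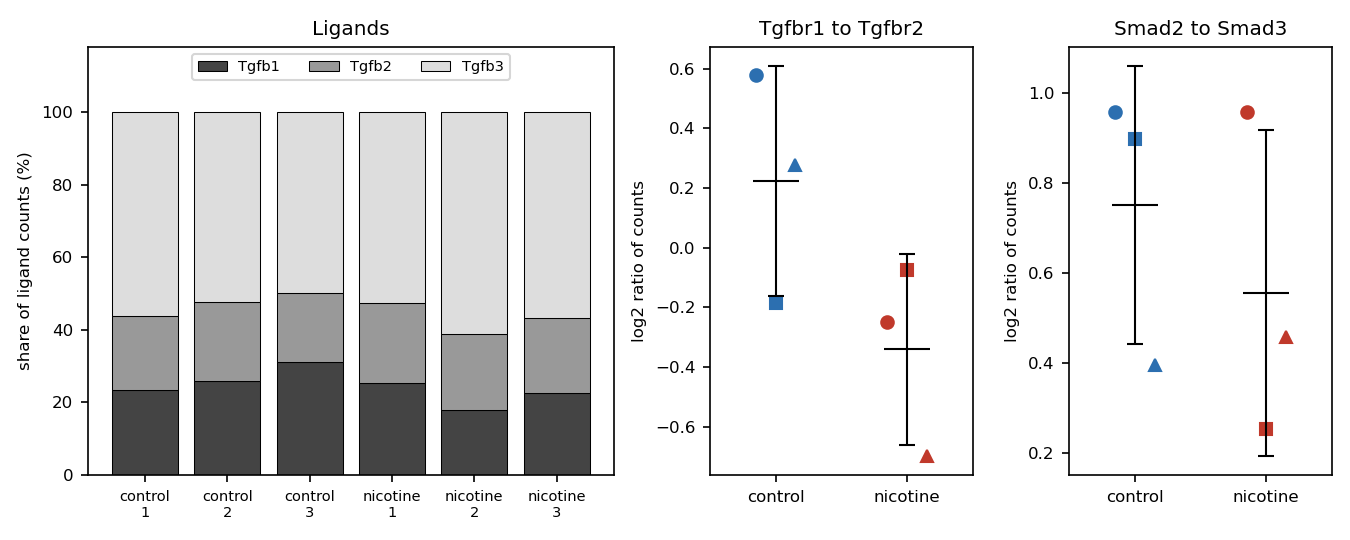
Left, share of Tgfb1, Tgfb2 and Tgfb3 in their summed counts in each library, in percent, as stacked bars. Middle and right, log2 ratio of the counts of Tgfbr1 to Tgfbr2 and of Smad2 to Smad3 in each library, with circles, squares and triangles for replicates 1, 2 and 3 and bars for the mean and SD of 3 rats. The Tgfbr1 to Tgfbr2 ratio of control replicate 2, at -0.19, lies within the nicotine range of -0.70 to -0.08, and the other controls lie above it.

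Among the receptors, Tgfbr1 and Tgfbr2 had differences of opposite sign. Tgfbr1, the type I receptor kinase that phosphorylates Smad2 and Smad3, was at 75.4, 87.9 and 69.8 CPM in the nicotine libraries and at 99.7, 87.1 and 89.4 CPM in controls. Nicotine replicate 2 lay inside the control range and the other nicotine libraries lay below it. Its log2 fold change was -0.24 (95% interval -0.60 to 0.11, adjusted p = 0.852 from edgeR), and it stayed negative without each library in turn, from -0.35 to -0.17. Its unadjusted p was under 0.05 only without nicotine replicate 2, the library inside the control range, with an adjusted p of 0.735 from edgeR. Tgfbr2, the type II receptor that binds the ligand first, was at 89.6, 92.7 and 113 CPM in the nicotine libraries and at 66.8, 99.1 and 73.8 CPM in controls. Here control replicate 2 lay within the nicotine range and the other controls below it. Tgfbr2 had a log2 fold change of 0.30 (95% interval -0.12 to 0.72, adjusted p = 0.852 from edgeR), and 0.19 to 0.49 without each library in turn. Its unadjusted p was under 0.05 only without control replicate 2, the control within the nicotine range. The log2 fold change was then 0.49, with an adjusted p of 0.958 from edgeR.

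The log2 ratio of Tgfbr1 to Tgfbr2 counts combines both receptors within a library. It was -0.25, -0.08 and -0.70 in nicotine replicates 1, 2 and 3 and 0.58, -0.19 and 0.28 in control replicates 1, 2 and 3. The means were -0.34 ± 0.32 (SD, n = 3) and 0.22 ± 0.38 (SD, n = 3), and the groups overlapped through control replicate 2. The difference of -0.56 had p = 0.2 in the exact two-sided permutation test (0.333 adjusted over the 5 measures). Without each library in turn it ran from -0.77 without control replicate 2 to -0.38 without nicotine replicate 3. The exact permutation p ran from 0.1, the smallest possible for 2 libraries against 3, to 0.4. The 0.1 came without control replicate 2. The groups did not overlap there because the control within the nicotine range had been left out, so that fit adds no support.

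Tgfbr3 encodes betaglycan, the co-receptor that presents TGF-beta2 to the type II receptor and also binds inhibin, through which it takes part in the control of follicle-stimulating hormone. Its levels were 47.4, 71.2 and 44.6 CPM in the nicotine libraries and 42.8, 51.8 and 47.0 CPM in controls. A single library, nicotine replicate 2, stood above the rest, and the other nicotine libraries lay within the control range. The log2 fold change of 0.21 (95% interval -0.23 to 0.65, adjusted p = 0.861 from edgeR) turned to -0.047 without that library.

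The 4 Smads had log2 fold changes between -0.11 and 0.15. Smad2, a receptor-regulated Smad, was at 43.8, 45.8 and 37.3 CPM in the nicotine libraries and at 48.6, 47.2 and 41.3 CPM in controls. Only nicotine replicate 3 lay below every control. Smad2 had a log2 fold change of -0.11 (95% interval -0.46 to 0.24, adjusted p = 0.907 from edgeR), and -0.18 to -0.028 without each library in turn. The highest level of the 6 libraries was only 1.30 times the lowest, the smallest range among the 10 genes. Smad3, the second receptor-regulated Smad, which unlike the main form of Smad2 binds DNA directly, was at 22.6, 38.4 and 27.2 CPM in the nicotine libraries and at 25.0, 25.3 and 31.4 CPM in controls. As for Tgfbr3, nicotine replicate 2 was the highest of all libraries. The log2 fold change of 0.11 (95% interval -0.35 to 0.57, adjusted p = 0.936 from edgeR) became -0.14 without it. The log2 ratio of Smad2 to Smad3 counts was 0.96, 0.25 and 0.46 in nicotine replicates 1, 2 and 3 and 0.96, 0.90 and 0.40 in control replicates 1, 2 and 3. The group means differed by -0.19, less than the SD in either group (exact two-sided permutation test, p = 0.6).

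Smad4, the common partner that TGF-beta and bone morphogenetic protein (BMP) signals share, was at 37.8, 48.0 and 33.2 CPM in the nicotine libraries and at 39.3, 44.5 and 41.3 CPM in controls. The controls lay between the nicotine libraries, and the SD was 7.57 CPM in the nicotine group and 2.60 CPM in controls. The log2 fold change of -0.07 (95% interval -0.46 to 0.31, adjusted p = 0.948 from edgeR) became 0.040 without nicotine replicate 3. Smad7, the inhibitory Smad that the pathway induces as negative feedback, was at 8.74, 7.90 and 7.83 CPM in the nicotine libraries and at 6.46, 7.47 and 8.06 CPM in controls. Control replicate 3 lay within the nicotine range, and the other controls lay below it. Its log2 fold change was 0.15 (95% interval -0.27 to 0.58, adjusted p = 0.897 from edgeR), and 0.073 to 0.23 without each library in turn. The SD was 6.20% of the mean in the nicotine group, the lowest of the 10 genes.

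**Figure D3:**
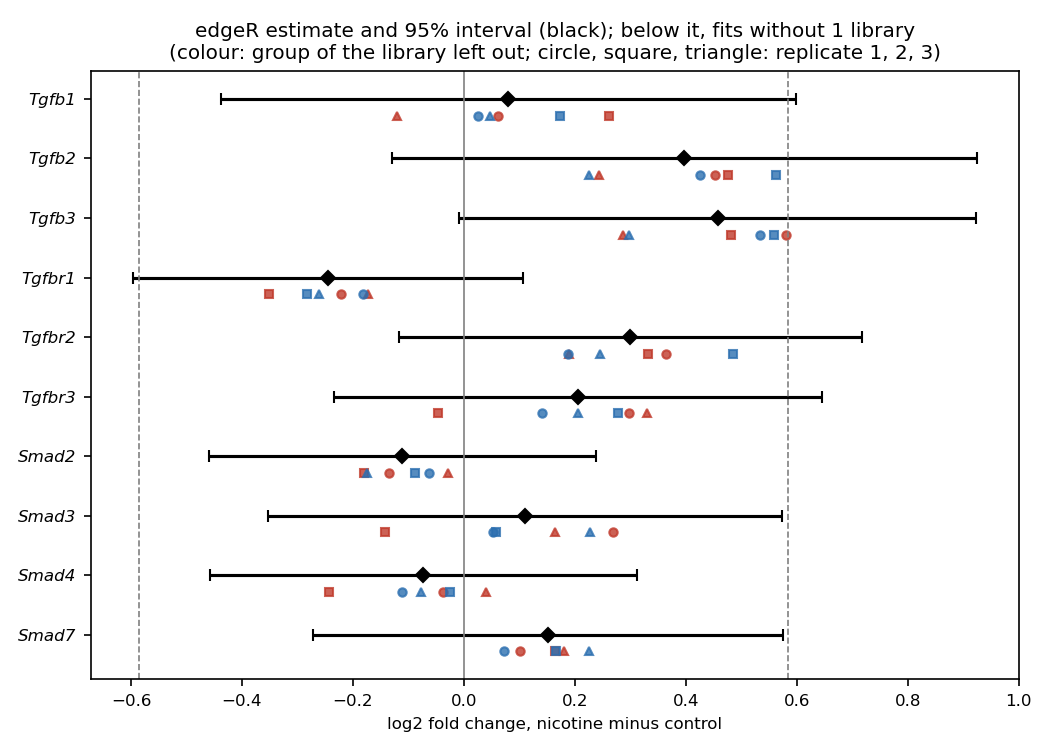
Log2 fold change, nicotine minus control, of each gene from edgeR (black diamond) with its 95% interval (black line). The coloured marks below each are the estimates without 1 library, with the colour giving the group of the library left out (blue control, red nicotine) and circles, squares and triangles giving replicates 1, 2 and 3. Dashed lines mark a fold change of 1.5, and every interval includes 0, although that of Tgfb3 reaches only to -0.01.

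The intervals set what these libraries could show. Those of Smad2, Smad3, Smad4 and Smad7 lay within a fold change of 1.5 in both directions, with the widest bounds at 0.727 for Smad2 and 1.49 for Smad7. The intervals of Tgfb1, Tgfb2, Tgfb3, Tgfbr2 and Tgfbr3 reached past 1.5-fold higher, to 1.51, 1.90, 1.90, 1.65 and 1.56, and that of Tgfbr1 reached down to 0.661. The counting error of the smallest count of each gene was 1.92% to 7.60%, and the SD between rats in a group was 6.20% to 27.7% of the mean. For Smad7 the counting error of 7.56% is that of control replicate 1, with 175 counts, and the SD of the control group was 11.0% of the mean.

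Levels of the 10 genes were set against each other across the 6 libraries, which gave 45 pairs. The strongest relation was that of Tgfb2 with Tgfb3, with Pearson's r = 0.95 (exact permutation p = 0.0278) and Spearman's rho = 0.77 (exact permutation p = 0.103). Adjusted over the 45 pairs these became 0.516 and 0.681, so no pair held after adjustment. Without the 2 libraries farthest from the median of Tgfb2, nicotine replicate 3 and control replicate 3, r was 0.15, so the relation rests on those libraries. The r of the deviations from the group means was 0.92. Tgfbr1 and Tgfbr2 ran in opposite directions, with r = -0.80 (exact permutation p = 0.0514) and rho = -0.83 (exact permutation p = 0.0583). Their r was -0.84 without the 2 libraries farthest from the median of Tgfbr1 and -0.66 within groups, and the adjusted values were 0.516 and 0.681. By likeness to Tgfb1 the nearest of 14505 genes with a mean of at least 1 CPM were Stk10, a serine/threonine kinase gene, Rbm33, an RNA-binding protein gene, and Cavin2, which encodes a coat protein of caveolae, each with r = 0.99 over the 6 libraries. With so few libraries and so many genes this is a description of shared levels only. None of these genes was called between groups, with adjusted p from 0.963 to 0.977 in edgeR.

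**Figure D4:**
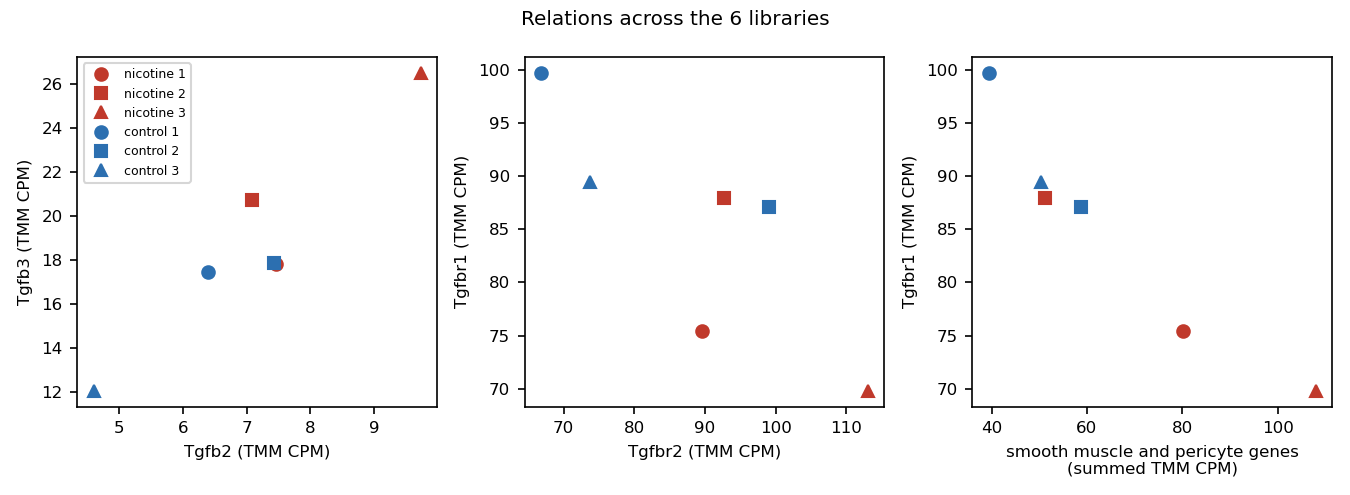
Level of Tgfb3 against Tgfb2, of Tgfbr1 against Tgfbr2, and of Tgfbr1 against the summed level of the 9 smooth muscle and pericyte genes, in CPM after TMM scaling, with 1 mark per library (red nicotine, blue control, circles, squares and triangles for replicates 1, 2 and 3). In the left plot nicotine replicate 3 and control replicate 3 lie at the ends, and in the right plot Tgfbr1 falls from 99.7 CPM at a summed level of 39.4 CPM to 69.8 CPM at 108 CPM.

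A gland is a mixture of cells, and in these libraries fewer cells of a type and less RNA per cell cannot be told apart. The 10 genes are used by vessel wall, endothelial, stromal and endocrine cells, so the levels of 12 lists of marker genes were set beside them. Apart from the germ cell genes, no listed gene was at 0 in every library. The 9 smooth muscle and pericyte genes, led by Myh11, summed to 51.3 to 108 CPM in the nicotine group and 39.4 to 58.7 CPM in controls, with 9 of 9 higher on average. The 7 endothelial genes, led by Plvap, summed to 184 to 302 CPM and 149 to 200 CPM, with 7 of 7 higher. The 5 folliculostellate genes, led by S100b, summed to 242 to 329 CPM and 207 to 260 CPM, with 5 of 5 higher, and the 5 posterior lobe genes, led by Scn7a, to 67.1 to 138 CPM and 51.4 to 91.0 CPM, also with 5 of 5 higher. Scn7a made up most of this sum, with a log2 fold change of 0.30 from edgeR. Rax, Col25a1, Lhx2 and Nkx2-1 stood at 1.37, 1.63, 1.25 and 1.54, and each was lowest in control replicate 3. Of these, only Col25a1 and Nkx2-1 had groups without overlap. Over all genes tested 51.2% were higher. The 6 fibroblast genes, led by Pi16, summed to 69.4 to 135 CPM and 124 to 159 CPM, with 2 of 6 higher. The 6 meningeal genes, led by Ogn, summed to 64.2 to 135 CPM and 112 to 170 CPM, with 1 of 6 higher. The 8 macrophage genes, led by C1qa, summed to 152 to 316 CPM and 250 to 343 CPM, with 0 of 8 higher, and the 6 neutrophil and erythroid genes, led by Hbb, to 949 to 2842 CPM and 2663 to 5245 CPM, with 0 of 6 higher. Hbb outweighed the neutrophil genes S100a8, S100a9, Camp and Ngp in this sum, and control replicate 2 was the lowest of all libraries for each of them. The 4 oligodendrocyte genes, led by Mbp, summed to 26.2 to 31.0 CPM and 22.1 to 90.4 CPM, with 0 of the 3 tested higher. The 6 T and B cell genes, led by Cd3g, summed to 2.74 to 3.33 CPM and 3.66 to 10.6 CPM, with 0 of the 5 tested higher. This was the only one of the 12 lists without overlap. edgeR called none of the genes in the 12 lists. DESeq2 called Abcc9 of the smooth muscle and pericyte list (log2 fold change 1.31 from edgeR, adjusted p = 0.0967 from DESeq2) and Gjb2 of the meningeal list (log2 fold change -1.21 from edgeR, adjusted p = 0.0732 from DESeq2), both without overlap between the groups and named after their values were seen.

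Of the 120 relations between these lists and the 10 genes, the strongest was that of Tgfbr1 with the smooth muscle and pericyte genes, in opposite directions. It had r = -0.99 (exact permutation p = 0.00139) and rho = -1 (exact permutation p = 0.00278), and 0.167 for both after adjustment over the 120 relations. The r was -0.96 without the 2 libraries farthest from the median of the list and -0.99 within groups. It was chosen as the largest of the 120. For Tgfbr2 and the same list r was 0.82 (exact permutation p = 0.0444, adjusted 0.589) and rho 0.83 (exact permutation p = 0.0583, adjusted 0.817). Tgfb2 followed the order of the endothelial genes, with rho = 1 (exact permutation p = 0.00278, adjusted 0.167) and r = 0.89 (exact permutation p = 0.00972, adjusted 0.389). The part that the share of these cells has in the levels of the 10 genes was not tested.

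The other genes of the pathway were read from 5 lists with 67 genes, all of them tested. edgeR called 0 of the 67, and 7 higher and 8 lower genes had an unadjusted p under 0.05, which is 22.4% of the lists beside 5.85% of all genes. DESeq2 called 2 of them, Acta2 and Col4a2, which the study picked from these libraries. The groups did not overlap for 16 of the 67, or 23.9%, beside 11.3% of all genes. The lists were written with earlier results of these libraries known, and no test of the lists as sets was made. The median log2 fold change of the 67 genes was 0.04.

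Of 13 genes for latency and activation of the ligands, which bind, store or release them, 1 was higher at an unadjusted p under 0.05 and none lower, with a median log2 fold change of 0.04. It was Furin, which encodes a protease that cleaves the ligand precursors. Its levels were 38.8, 41.5 and 49.8 CPM in the nicotine libraries and 26.2, 30.5 and 38.7 CPM in controls, with every nicotine library above every control. Furin had a log2 fold change of 0.45 (adjusted p = 0.839 from edgeR).

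Of 10 genes for extracellular binders and accessory receptors, 3 were higher and 2 lower at an unadjusted p under 0.05, with a median log2 fold change of -0.01. Aspn and Dcn encode asporin and decorin, small proteoglycans of the matrix that bind TGF-beta. Aspn was at 1.29, 1.27 and 1.22 CPM in the nicotine libraries and 2.40, 2.61 and 2.14 CPM in controls (log2 fold change -0.92, adjusted p = 0.807 from edgeR). Dcn was at 233, 101 and 246 CPM in the nicotine libraries and 339, 430 and 284 CPM in controls (log2 fold change -0.86, adjusted p = 0.808 from edgeR, and -0.56 without nicotine replicate 2). Vasn encodes vasorin, a vessel wall protein that binds TGF-beta, and was at 8.30, 10.3 and 12.2 CPM in the nicotine libraries and 7.39, 7.72 and 5.31 CPM in controls (log2 fold change 0.60, adjusted p = 0.825 from edgeR). For these 3 genes the groups did not overlap.

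Among 13 Smad regulators, such as ubiquitin ligases and corepressors, 0 had an unadjusted p under 0.05 in edgeR, and none was called by DESeq2. The smallest p was that of Smurf1, a ubiquitin ligase gene, at 15.5, 18.0 and 13.7 CPM in the nicotine libraries and 10.9, 13.4 and 12.3 CPM in controls (log2 fold change 0.37, unadjusted p = 0.0641 and adjusted p = 0.839 from edgeR). The groups did not overlap for 2 of the 13 with nicotine above, Smurf1 among them, and for 2 with nicotine below. Over all genes these shares were 6.12% and 5.14%. The 4 other Smads, which serve BMP signals or inhibit, likewise held 0 genes at an unadjusted p under 0.05 and 0 DESeq2 calls. Among them Smad9 was at 0.297, 0.890 and 0.826 CPM in the nicotine libraries and 1.44, 1.08 and 0.977 CPM in controls (log2 fold change -0.77, adjusted p = 0.848 from edgeR). Its groups did not overlap, but its counts were low, with 14 in nicotine replicate 1.

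The 27 target genes held 3 higher and 6 lower genes at an unadjusted p under 0.05, and a median log2 fold change of 0.10. Acta2, smooth muscle actin, was at 2.74, 2.21 and 2.54 CPM in the nicotine libraries and 0.258, 0.984 and 0.449 CPM in controls (log2 fold change 2.09, adjusted p = 0.597 from edgeR). Col4a1 and Col4a2 encode paired chains of basement membrane collagen. Col4a1 was at 42.1, 36.5 and 55.3 CPM in the nicotine libraries and 20.9, 31.3 and 25.1 CPM in controls (log2 fold change 0.79, adjusted p = 0.807 from edgeR). Col4a2 was at 35.4, 35.9 and 49.1 CPM and 20.8, 25.0 and 24.7 CPM (log2 fold change 0.77, adjusted p = 0.767 from edgeR). For these 3 genes no control reached the lowest nicotine library. The 6 lower genes, listed after their values were seen, were the collagen genes Col1a1, Col1a2 and Col3a1, with log2 fold changes of -0.80, -0.51 and -0.53, Fn1, fibronectin, at -1.11, Junb, an immediate early gene, at -0.86, and Id1, a BMP target, at -0.76. Their adjusted p from edgeR was 0.807 to 0.839. The targets with an unadjusted p under 0.05 thus lay in both directions, 3 higher and 6 lower, and pathway activity was not tested. Only Col1a1 and Id1 of these 6 had groups without overlap. Junb rests on control replicate 1, which had 224 CPM where the remaining 5 libraries had between 61.6 and 88.8 CPM, and its log2 fold change was -0.14 without it. Fn1 was at -1.72 and Col3a1 at -0.81 without nicotine replicate 3, but at -0.80 and -0.40 without nicotine replicate 2. Col1a2 ranged from -0.73 without control replicate 1 to -0.35 without control replicate 3. The smooth muscle, pericyte and endothelial marker lists given above had higher mean sums in the nicotine group, the fibroblast list had a lower one, and their part in these values was not tested.

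**Figure D5:**
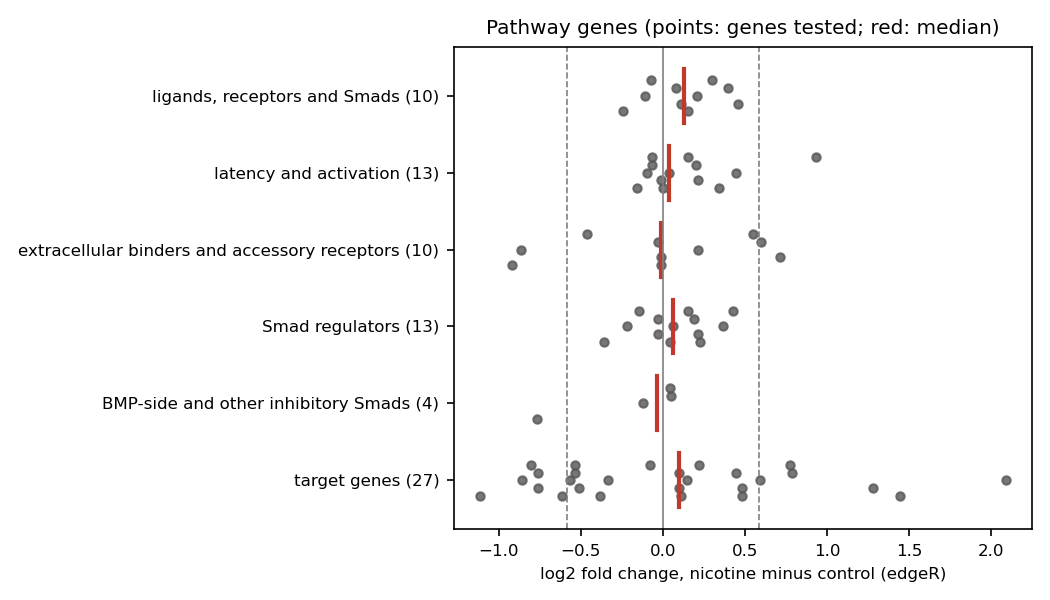
Log2 fold change, nicotine minus control, from edgeR for the 10 genes and for the 67 genes of the 5 pathway lists (number of genes in brackets). Each point is a gene, red lines are medians, and dashed lines mark a fold change of 1.5. The 10 genes lie between -0.24 and 0.46, and the target genes between -1.11 and 2.09.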

How the data were processed

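RNA-seq libraries of the pituitary gland from 3 nicotine and 3 control rats were used. According to the methods and the submitters' processing notes, the authors mapped paired-end, strand-specific reads to rn7 with HISAT2 2.1.0 and assigned them to ncbiRefSeq genes with featureCounts, and deposited whole-number counts per gene symbol without normalization. The strand setting, the handling of reads with several positions and whether pairs were counted are not given in the sources used here, so genes that overlap could share reads.

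The software was R 4.3.3, edgeR 4.0.16 and DESeq2 1.42.0. filterByExpr kept 17292 of 24546 genes with a count, library sizes of 28318383 to 85977002 counts were scaled by TMM, and nicotine was tested against control by edgeR's quasi-likelihood method with Benjamini-Hochberg adjustment over all genes tested. The standard error is the log2 fold change divided by the square root of the F statistic, and 95% intervals use the t distribution. Within-library shares and ratios were taken from counts, since no transcript lengths were used, and compared by exact two-sided permutation over the 6 libraries. Intervals of shares are exact binomial (Clopper-Pearson). Only the edgeR fit was run on simulated counts, drawn with the spread estimated from these same libraries. The shares, ratios, correlations and DESeq2 fit were not tested in this way.

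The genes, lists and tests were chosen with earlier results of these data known. Named are the 10 genes, Acta2 and Col4a2, up to 3 genes with the smallest unadjusted p under 0.05 in each pathway list or else the 1 with the smallest p, the 3 genes most like Tgfb1, and the most abundant gene of each marker list. Other target genes that were lower, Abcc9, Gjb2, and the further posterior lobe and neutrophil genes were named after their values were seen. The alternatives were a fit with DESeq2, scaling by RLE or by library size alone, testing without the filter or with a minimum of 10 counts per library, calls at any fold change, a pseudocount of 0.5 in the ratios, a replicate block, and fits that omit 1 library.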

Additional observations from a re-analysis of the deposited data

How the results depend on the processing

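The number of the 10 genes called was 0 under DESeq2, with RLE or no scaling factors, without the filter, with a minimum of 10 counts per library, with the replicate block and in each fit without 1 library. Of 120 log2 fold changes of these genes under those settings, 116 kept their direction and 4 reversed, all without 1 library. These were Tgfb1 at -0.12 and Smad4 at 0.040 without nicotine replicate 3, and Tgfbr3 at -0.047 and Smad3 at -0.14 without nicotine replicate 2. The adjusted p of these 4 estimates lay between 0.922 and 0.992 in edgeR. Without each library in turn Tgfb1 ranged from -0.12 to 0.26, Tgfbr3 from -0.047 to 0.33, Smad3 from -0.14 to 0.27 and Smad4 from -0.24 to 0.040. The cause was not tested. Over all genes the number called was 0 with edgeR and with RLE normalization. It was 62 with DESeq2, 30 with no filter, 1 with library sizes alone, 1 with a minimum of 10 counts per library, 2 with the replicate block and 0 to 4 without 1 library, and the cause was not tested. The 4 genes called without control replicate 2 were Camp, Ngp, S100a8 and S100a9. Dropping the fold threshold also gave 0, since the smallest adjusted p was 0.103. The labels do not say whether the replicate numbers pair the rats. The deviations of same-numbered libraries correlated at 0.03, -0.20 and -0.08, which cannot decide this, because libraries of unlike number were not compared. Under the block the differences in the Tgfb1 share and in both ratios are the same by construction, so only their p can change. The exact sign-flip p was 0.5, 0.5 and 0.75, where 3 pairs cannot give less than 0.25. The difference in the Tgfb1 share was -6.71 to -2.80 percentage points without 1 library, that in the Tgfbr1 to Tgfbr2 ratio -0.77 to -0.38, and that in the Smad2 to Smad3 ratio -0.39 to -0.04. The number of pathway genes at an unadjusted p under 0.05 was 11 to 20 under alternatives chosen after seeing the data, against 15, and no pathway gene at that p turned its direction without 1 library. An alternative that leaves ligand shares undivided by gene length was not run, because the shares were already taken that way.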
